A study of Homo sapiens with 14 samples.

Results

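The 9 genes described here encode enzymes that break down amino acids or dispose of the nitrogen released: HAL, HPD, TAT, FAH, CPS1, ASS1, ARG1, GLUL and AADAT. They were taken as the probe sets whose symbol in the array annotation was 1 of these 9, out of 19775 genes with a symbol of their own. HAL and AADAT had been picked for their courses in the control arm, so their values in any comparison with control arrays are given as a description with no test. The cells were HepG2, an established human cell line from a liver tumour, transfected with miR-124, a small RNA abundant in neurons that lowers messenger RNAs with a matching site, or with a negative control. RNA was taken 4, 8, 16, 24, 32, 72 and 120 h after transfection, with 1 array per arm and time (14 arrays in all). All arrays were of the same 1 cell line, no untransfected cells are among the samples used here, and the sequence and dose of each transfected RNA are not given in the sources used here.

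Liver cells use the carbon of amino acids for energy or glucose and turn the nitrogen into urea or glutamine. The urea cycle joins ammonia and bicarbonate to carbamoyl phosphate in mitochondria (CPS1), adds a nitrogen from aspartate (ASS1) and releases urea from arginine (ARG1), while glutamine synthetase (GLUL) traps ammonia that escapes it. Histidine, tyrosine, lysine and tryptophan are broken down by pathways of their own, begun by HAL for histidine and by TAT for tyrosine.

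The data in short: in control cells the HAL signal at 120 h was 8.95-fold that at 4 h, a dim level, while in miR-124 cells it stayed at that dim level within 0.43 on the log2 scale, and the AADAT signal was 1.67-fold lower at 120 h than at 4 h in control cells. CPS1 was 1.30-fold lower with miR-124 at 16 to 32 h and 1.33-fold lower at 72 and 120 h, both past the test but lost under several other settings given below. The genes and windows were chosen with earlier results of these data known, the late CPS1 difference among them. Neither of these tests therefore gives independent support. The signals of HPD and ASS1 rose with time in miR-124 cells. Their control slopes were also above 0, the slopes of their ratio were not called, and the ASS1 call was lost without any 1 of 5 arrays. GLUL and FAH were not called at 72 and 120 h on their brightest probe sets. On others GLUL was lower and FAH higher with miR-124 in a fit of every probe set, where 14.9% of all probe sets were called. TAT and ARG1 were dim on all of their probe sets.

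The annotation listed 21 probe sets for the 9 genes, and 9 of these had a mean below 6.19 on the log2 scale, the median of all probe sets, which was the limit for testing a gene. Each gene was represented by its probe set with the highest mean, and 7 of the 9 genes passed the limit. TAT (mean 5.99) and ARG1 (mean 5.82) did not, so they have values and a test only in a fit of every probe set. In all, 13137 genes were tested.

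Promoters are shown for HAL and AADAT because their control courses are the pattern that chose them. The reference table from RefSeq (build GRCh38.p14) held windows for 8 of the 9 genes, 16 windows in all, and the 250 bases before a start are printed here in the direction of transcription, with a matched motif in capitals. The window of HAL is chr12:95996345-95996594 on the minus strand, and the first of the 3 windows of AADAT is chr4:170090388-170090637 on the minus strand.
HAL: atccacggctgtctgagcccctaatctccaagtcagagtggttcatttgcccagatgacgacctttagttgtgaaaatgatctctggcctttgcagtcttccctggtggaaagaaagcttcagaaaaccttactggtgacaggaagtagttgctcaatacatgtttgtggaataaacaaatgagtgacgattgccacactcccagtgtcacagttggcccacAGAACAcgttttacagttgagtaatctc
AADAT: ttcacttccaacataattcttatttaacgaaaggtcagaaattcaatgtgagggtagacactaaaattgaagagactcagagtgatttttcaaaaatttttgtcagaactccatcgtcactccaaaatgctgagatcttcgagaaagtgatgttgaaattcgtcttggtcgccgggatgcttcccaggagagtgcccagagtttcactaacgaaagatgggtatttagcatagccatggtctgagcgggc
Both strands were searched for 5 motifs: TATAAA, a core promoter element; CCAAT, bound by NF-Y; TTGCGCAA, bound by C/EBP proteins; CAAAGTCCA, bound by HNF4A; and AGAACA, a part of the glucocorticoid receptor's recognition sequence. The HAL window held 1 match, AGAACA from 28 to 23 bases before the start, a motif found in 12.4% of 35116 promoter windows. The AADAT window shown held none, and the third AADAT window held CCAAT on the reverse strand (32.0% of all windows held it). TATAAA was in 10.7% of all windows, TTGCGCAA in 0.131% and CAAAGTCCA in 0.325%. These matches describe the letters only, and no binding was measured in this series. The HAL window was 45.6% G and C and the AADAT window 41.6%.

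HAL, histidine ammonia-lyase, takes the amino group off histidine in the first step of its breakdown. On its brightest probe set (206643_at) the control log2 signals at 4, 8, 16, 24, 32, 72 and 120 h were 6.001, 6.26, 6.30, 6.36, 6.46, 8.08 and 9.16. With miR-124 it was 6.31, 5.99, 6.13, 6.28, 5.90, 6.33 and 6.17 at the same times. The control arrays of 72 and 120 h stood above all other arrays of either arm, and the other 12 lay between 5.90 and 6.46. The paired log2 ratio (miR-124 minus control) went from 0.31 through -0.27, -0.17, -0.08, -0.56 and -1.75 to -2.99. That is 3.37-fold lower at 72 h and 7.95-fold lower at 120 h, each from 1 pair of arrays. All 7 miR-124 arrays were dim (mean 6.16, against the testing limit of 6.19), and the control arrays of 4 to 32 h lay near that limit too, so the 2 late control arrays were the clear signals of HAL. A fold over so dim a level may understate the difference. The fitted late difference (mean of 72 and 120 h) was -2.37, or 5.18-fold, the 6th lowest of 13137 genes. Its SE of 0.27 comes from the spread in all windows and does not measure how far these 2 pairs lay apart (-1.75 and -2.99). The difference is a description because the control course chose the gene.

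The control slope of HAL was 0.61 ± 0.12 (SE, 7 arrays) per doubling of time, the highest of all 13137 genes, and ranged from 0.41 to 0.78 as each array was left out. The arrays that did not choose the gene are those of the miR-124 arm. There the slope was 0.00485 ± 0.0389 per doubling of time (95% interval -0.0844 to 0.0941, limma adjusted p = 0.946), read at that dim level. HAL passed the limit for testing only through its control arrays (mean 6.95, against 6.16 with miR-124). This test therefore cannot tell a flat course from a signal too dim to follow. A second probe set of HAL (217521_at) ran the same way with a smaller range. Its control signal was 6.28, 6.51, 6.41, 6.45, 6.53, 6.89 and 7.29 from 4 to 120 h, and its miR-124 signal stayed between 6.40 and 6.57. Its late ratios were -0.45 and -0.86. The third (237967_at) was dim, between 3.53 and 3.77 in all arrays, and its ratio stayed between -0.11 and 0.16.

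AADAT, aminoadipate aminotransferase, acts in lysine breakdown and turns kynurenine, a product of tryptophan, into kynurenic acid. It has 1 probe set (223593_at). From 4 to 120 h the control log2 signals were 7.74, 7.68, 7.70, 7.80, 7.64, 7.67 and 6.998. The miR-124 signal was 7.72, 7.56, 7.85, 7.59, 7.64, 7.97 and 7.92. The control array of 120 h was the lowest of the 14, and the highest were those of miR-124 at 72 and 120 h. The ratio lay between -0.21 and 0.15 up to 32 h, then was 0.30 at 72 h and 0.92 (1.89-fold) at 120 h. The late difference was 0.61 ± 0.15 (2 pairs, SE from the spread in all windows), the 1054th highest of all genes, given with no test. The control slope was -0.10 ± 0.04 per doubling of time over the 7 arrays and -0.01 without the array of 120 h. In the miR-124 arm, which did not choose the gene, the slope was 0.06 ± 0.03 (95% interval -0.0177 to 0.133, limma adjusted p = 0.241) and did not pass.

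**Figure D1:**
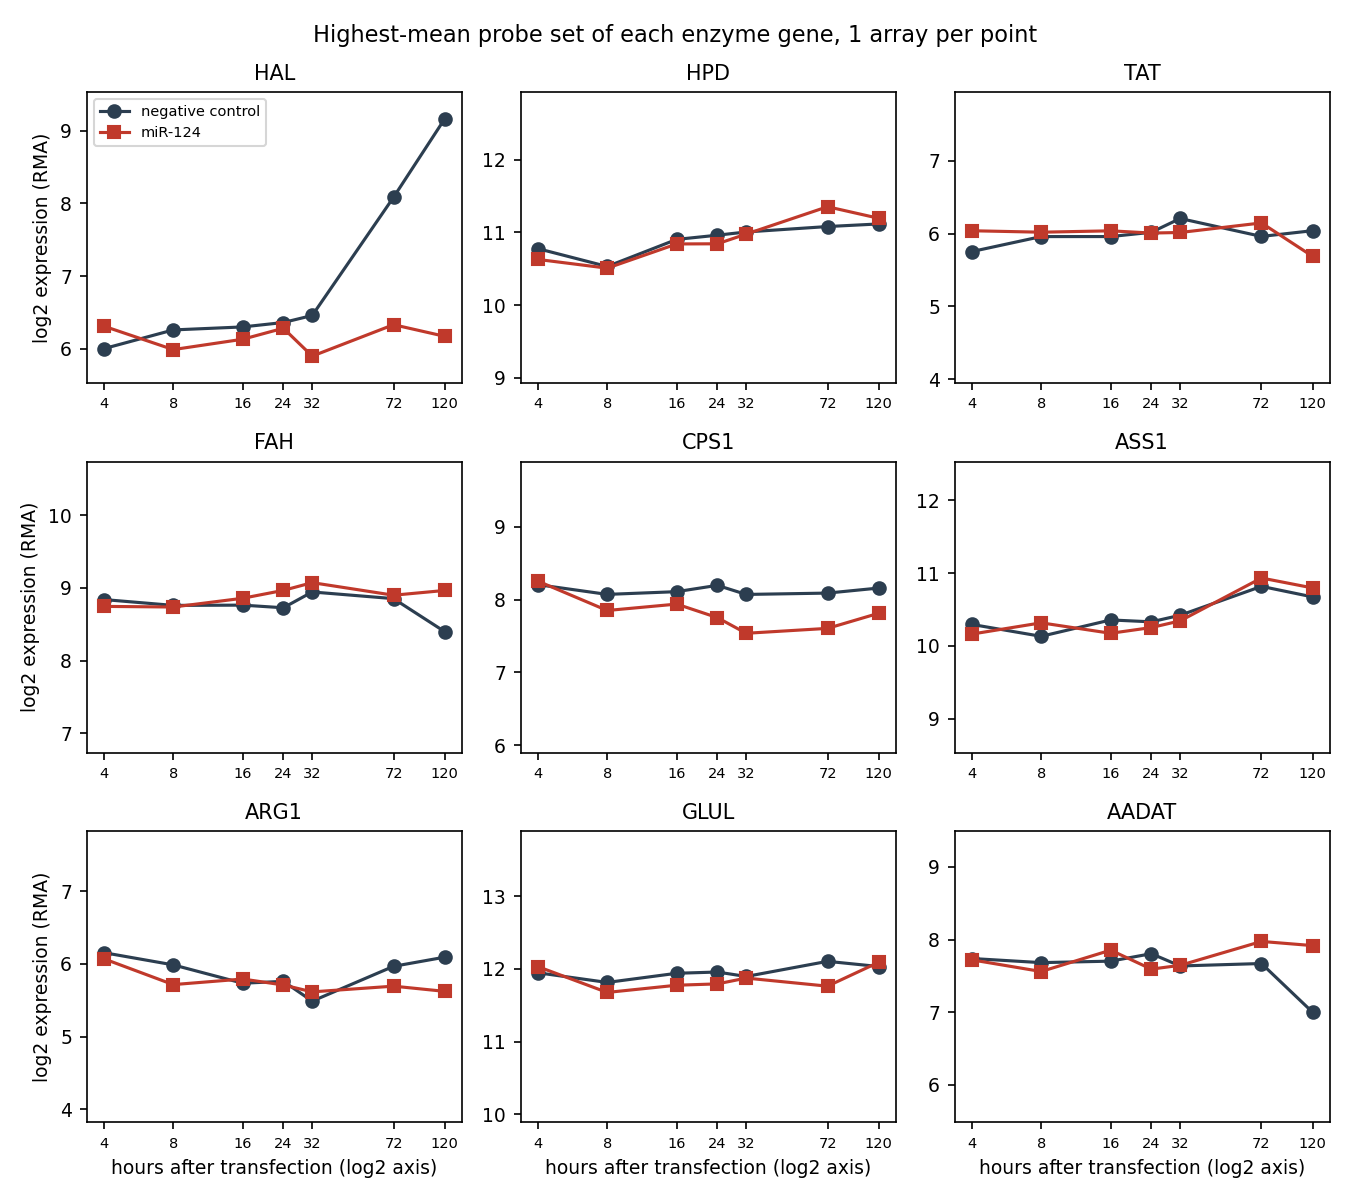
Log2 signal (vertical axis) of the brightest probe set of each of the 9 genes against hours after transfection (log2 axis), with 1 array per point, circles for the negative control and squares for miR-124. The HAL control line ends at 9.16 while its miR-124 line stays near 6, the AADAT control line ends at 6.998, and from 8 h on the CPS1 miR-124 line runs below the control line.

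CPS1, carbamoyl phosphate synthetase of mitochondria, catalyses the entry step of the urea cycle. On its brightest probe set (204920_at) the control log2 signals were 8.21, 8.07, 8.11, 8.20, 8.07, 8.09 and 8.16 in the same order of times. With miR-124 it was 8.25, 7.85, 7.94, 7.75, 7.54, 7.60 and 7.81. The arms overlapped through the 4 h array, and every later miR-124 array lay below the lowest control array. The paired ratio was 0.05 at 4 h, then -0.22, -0.17, -0.44, -0.53, -0.49 and -0.35. In the middle window (16, 24 and 32 h) the difference was -0.38 ± 0.09 (SE, 3 pairs, lower in 3 of 3; limma adjusted p = 0.0474), the only call among the 5 genes that could be tested there, against 7.83% of all genes called in either direction and 4.36% lower. In the late window (72 and 120 h) it was -0.42 ± 0.11 (2 pairs, lower in 2 of 2, SE from the spread in all windows, limma adjusted p = 0.0287). On the brightest probe sets CPS1 was again the only call of 5, against 29.1% of all genes called and 12.6% lower. Other probe sets of GLUL and FAH were called late in the fit of every probe set, as given below. The genes and windows were chosen with earlier results of these data known, the late CPS1 difference among them. Neither the middle nor the late test of CPS1 therefore gives independent support. The change between these windows was -0.03 ± 0.15 (95% interval -0.374 to 0.308, limma adjusted p = 0.933).

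Those CPS1 calls sat near the threshold. The middle call was lost without 4 or 8 h (adjusted p = 0.0737 each), without 24 h (0.328), without 32 h (0.352), with every probe set tested (0.0628), with arrays centred on their medians (0.0515) and without the pairing by time (0.0832). The late call was lost without 24 h (0.0591), without 72 h (0.136), without the pairing (0.0507) and in a fit of the 2 late pairs alone (0.188). The second CPS1 probe set (217564_s_at) was lower with miR-124 at all 7 times, with ratios of -0.05, -0.22, -0.45, -0.59, -0.78, -1.005 and -0.40. In the fit of every probe set it was called in both windows, at -0.61 ± 0.12 in the middle (limma adjusted p = 0.0294) and -0.70 ± 0.14 late (limma adjusted p = 0.0112), where 3.2% and 14.9% of all 54613 probe sets were called. The signal is that of bulk RNA, so fewer cells with the transcript and less of it per cell cannot be told apart, here and below. RNA quality moved with the arms. The ACTB signal on its 3′ probe set minus that on its 5′ probe set was higher with miR-124 in each of the 7 pairs, with 0.561 against 0.271 (24 h), 0.418 against 0.278 (32 h), 0.357 against 0.237 (72 h) and 0.411 against 0.102 (120 h). At 4 h it was 0.351 against 0.348. The same measure for GAPDH was lower with miR-124 at 4 h (0.195 against 0.204) and higher at the later times. The control array of 120 h had the lowest value on both (0.102 for ACTB and 0.0311 for GAPDH). That array also held the highest HAL signal and the lowest AADAT and FAH signals on their brightest probe sets. The part of RNA quality in the differences between arms was not tested.

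ASS1, argininosuccinate synthase, adds the nitrogen of aspartate to citrulline. Its control log2 signal (207076_s_at) was 10.29, 10.13, 10.36, 10.33, 10.42, 10.82 and 10.67 from 4 to 120 h, and its miR-124 signal was 10.16, 10.32, 10.17, 10.25, 10.34, 10.93 and 10.80. In both arms the 2 last arrays were the highest, and the arms overlapped. The ratio stayed between -0.18 and 0.19. The late difference was 0.12 ± 0.10 (95% interval -0.104 to 0.342, limma adjusted p = 0.413). The slope in miR-124 cells was 0.15 ± 0.04 per doubling of time (7 arrays, limma adjusted p = 0.0348) and the signal at 120 h was 1.55-fold that at 4 h. That call was lost without any 1 of the arrays of 4, 8, 16, 72 or 120 h (adjusted p from 0.0560 to 0.0869). In the control arm the slope was 0.12 ± 0.03, and the slope of the ratio was 0.03 ± 0.04 (limma adjusted p = 0.580).

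ARG1, arginase of the liver, releases urea from arginine in the last step of the cycle. Its 4 probe sets were all dim, with means from 3.59 to 5.82 on the log2 scale. The brightest (206177_s_at) read 6.16, 5.99, 5.74, 5.76, 5.49, 5.97 and 6.09 in control arrays and 6.07, 5.72, 5.79, 5.71, 5.62, 5.69 and 5.62 with miR-124. The arms overlapped, and the late ratios were -0.27 and -0.47. In the fit of every probe set its late difference was -0.37 ± 0.09 (limma adjusted p = 0.0281), and the 3 other probe sets were not called (adjusted p = 0.315, 0.806 and 0.976). Of all probe sets 14.9% were called late, so 1 call among 4 dim probe sets says little about ARG1.

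**Figure D2:**
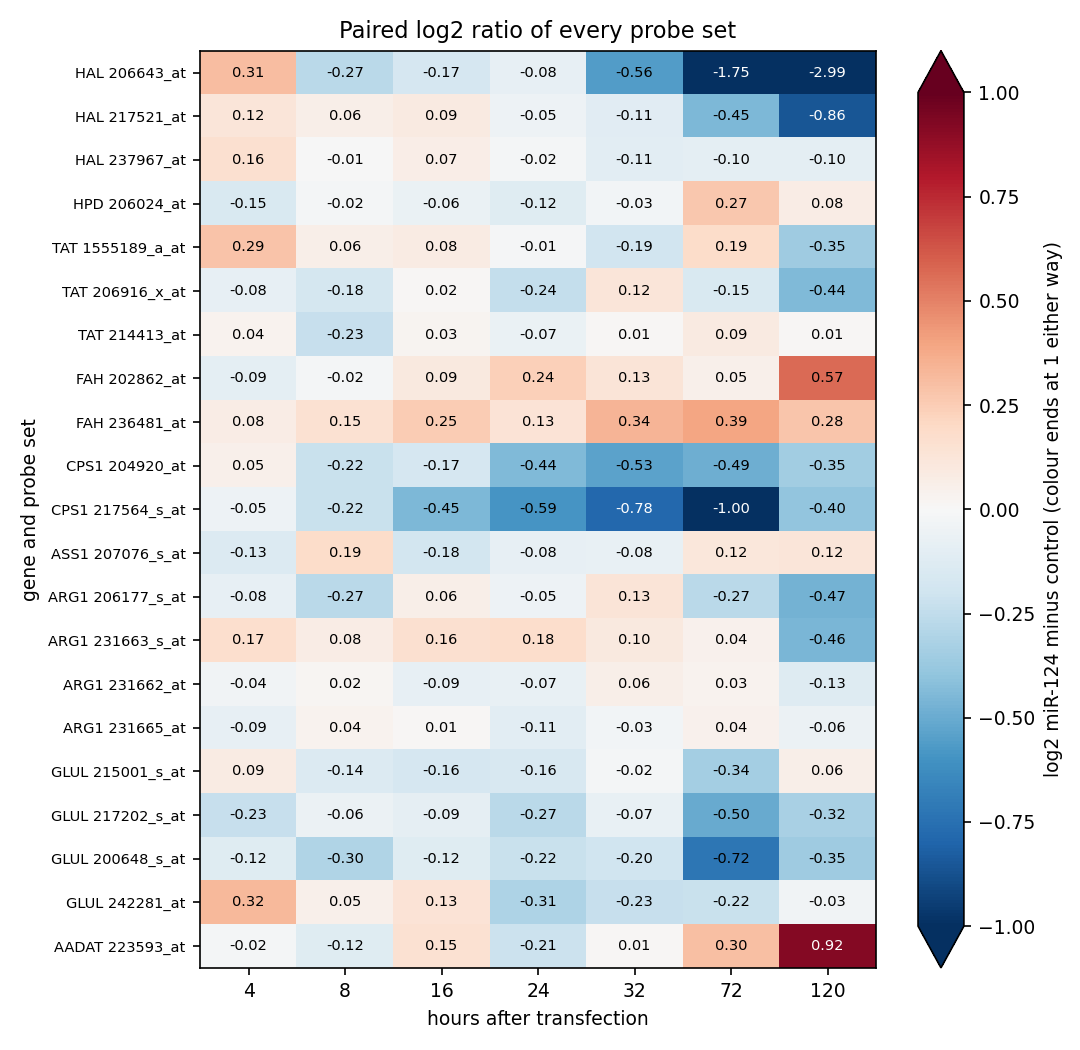
Paired log2 ratio of miR-124 over control (colour and printed value) for all 21 probe sets of the 9 genes (rows) at each of the 7 times in hours (columns), 1 pair of arrays per cell. The deepest values are those of HAL at 72 and 120 h (-1.75 and -2.99), both CPS1 probe sets are below 0 from 8 h on, and 2 GLUL probe sets are below 0 at all times.

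Tyrosine breakdown starts with TAT, tyrosine aminotransferase, which liver makes in response to glucocorticoids. All 3 of its probe sets were dim. The brightest (1555189_a_at) read 5.75, 5.96, 5.96, 6.02, 6.21, 5.96 and 6.04 in control arrays and 6.04, 6.02, 6.04, 6.01, 6.01, 6.15 and 5.69 with miR-124, so the arms overlapped. Its ratio ran from -0.35 to 0.29, and none of the 3 was called in the late window of the fit of every probe set (adjusted p = 0.776, 0.123 and 0.809), against 14.9% of all probe sets.

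HPD, the dioxygenase that acts after TAT and makes homogentisate, had a control log2 signal (206024_at) of 10.78, 10.53, 10.90, 10.96, 11.005, 11.08 and 11.11 from 4 to 120 h. With miR-124 it was 10.63, 10.51, 10.84, 10.84, 10.98, 11.35 and 11.19. The highest arrays of each arm were those of 72 and 120 h, and the arms overlapped. The slope in miR-124 cells was 0.16 ± 0.03 per doubling of time (7 arrays, limma adjusted p = 0.0142), and leaving out each array in turn kept the adjusted p between 0.0158 and 0.0459. HPD and ASS1 were thus the 2 of 7 genes called for this slope, both rising, against 21.7% of all genes called and 13.7% rising. The control slope of HPD was 0.10 ± 0.03, and the slope of the ratio, which tests the difference between arms, was 0.06 ± 0.03 (95% interval -0.00974 to 0.130, limma adjusted p = 0.252). The late difference was 0.18 ± 0.09 (limma adjusted p = 0.178).

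FAH, fumarylacetoacetate hydrolase, ends tyrosine breakdown. Its control log2 signal (202862_at) was 8.84, 8.76, 8.76, 8.73, 8.94, 8.85 and 8.40, and its miR-124 signal was 8.75, 8.74, 8.86, 8.97, 9.07, 8.90 and 8.96. The control array of 120 h was the lowest of all, with late ratios of 0.05 (72 h) and 0.57 (120 h). The late difference of 0.31 ± 0.12 missed the threshold (95% interval 0.0234 to 0.591, limma adjusted p = 0.101). It rested on 120 h: without 72 h it was 0.57 and without 120 h it was 0.05, each from 1 late pair. The second FAH probe set (236481_at) was higher with miR-124 at all 7 times, by 0.08 to 0.39, and was called late in the fit of every probe set (0.34 ± 0.09, limma adjusted p = 0.0303). In that fit 14.9% of all probe sets were called late.

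GLUL, glutamine synthetase, joins ammonia to glutamate. Its brightest probe set (215001_s_at) read 11.95, 11.81, 11.94, 11.96, 11.90, 12.10 and 12.03 in control arrays and 12.03, 11.68, 11.78, 11.79, 11.87, 11.76 and 12.09 with miR-124. The arms overlapped, and the late difference was -0.14 ± 0.11 (95% interval -0.406 to 0.123, limma adjusted p = 0.414). The probe sets of this gene disagreed. On 200648_s_at the ratio was below 0 at all 7 times, at -0.12, -0.30, -0.12, -0.22, -0.20, -0.72 and -0.35, and the late difference of -0.54 ± 0.10 was called in the fit of every probe set (limma adjusted p = 0.00874). On 217202_s_at it was also below 0 at all 7 times, and late it was -0.41 ± 0.09 (limma adjusted p = 0.0183). In that fit 14.9% of all probe sets were called late. On both 200648_s_at and 217202_s_at the control signal at 120 h was 1.46-fold that at 4 h. With miR-124 it was 1.25-fold on 200648_s_at and 1.37-fold on 217202_s_at. The slope of the ratio was not called on either (limma adjusted p = 0.353 and 0.462). The fourth (242281_at) was dim, with ratios from -0.31 to 0.32.

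In the comparisons that follow none of the 5 testable genes (HPD, FAH, CPS1, ASS1 and GLUL) was called in the main fit. Over all 7 times, limma called 0 of the 5, with 1 at an unadjusted p under 0.05, against 0.913% of all genes called. The CPS1 difference over all times was -0.31 ± 0.07 (lower in 6 of 7 pairs, limma adjusted p = 0.0663), with an adjusted p of 0.0240 without 4 h. At 4 and 8 h together (the early window) 0 of the 5 passed limma's test, with 0 at an unadjusted p under 0.05, against 0.0% of all genes. For the change from the middle to the late window limma called 0 of 5, with 0 at an unadjusted p under 0.05, against 4.75% of all genes. For the slope of the ratio limma called 0 of 5, with 2 at an unadjusted p under 0.05, against 8.58% of all genes. These 2 were FAH (0.10 ± 0.04, adjusted p = 0.131) and CPS1 (-0.09 ± 0.04, adjusted p = 0.151). In the control arm 8.18% of all genes were called for their slope, and the 9 genes were not tested there because that course served to choose HAL and AADAT.

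**Figure D3:**
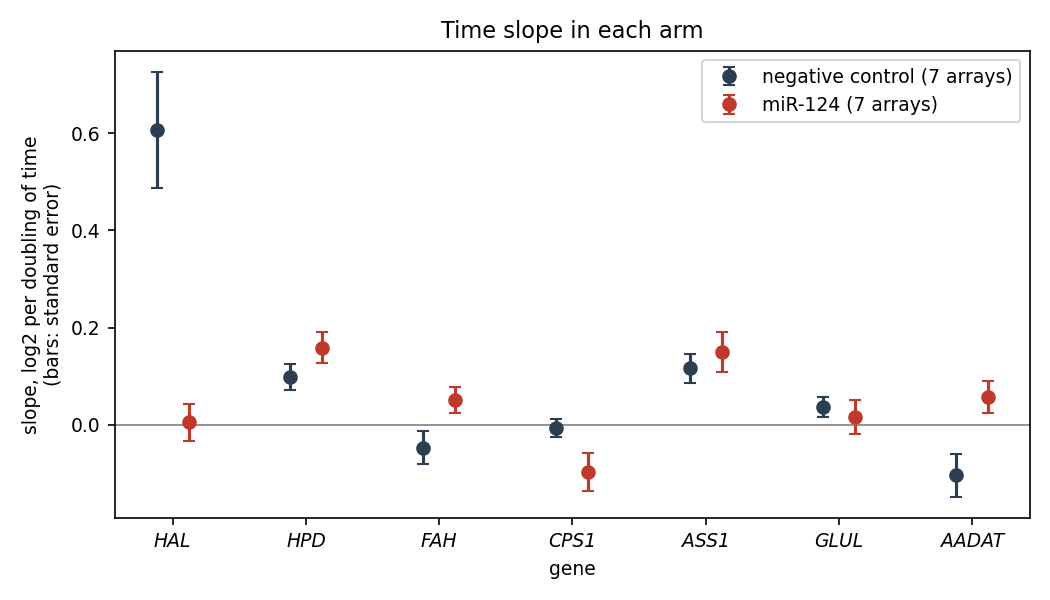
Slope of the log2 signal per doubling of time (vertical axis, bars are standard errors) of the 7 tested genes in each arm of 7 arrays. HAL stands at 0.61 in the control and 0.00485 with miR-124, while HPD and ASS1 lie above 0 in both arms.

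The other enzymes of these pathways gave a background for the 9 genes. Lists of 74 further genes in 8 pathways were written from general knowledge, and 60 of them were tested. In the middle window 4 were higher and 1 lower with miR-124, with a median of 0.03 that was the same for all genes tested, of which 7.83% were called. The lower one was QDPR, which regenerates the cofactor tetrahydrobiopterin, at -1.23 ± 0.13 (SE, 3 pairs, limma adjusted p = 0.00494). The higher ones were the mitochondrial ornithine carrier SLC25A15 (0.33 ± 0.08), the aspartate carrier SLC25A13 (0.25 ± 0.06), the aspartate aminotransferase GOT1 (0.42 ± 0.09) and HIBCH of valine breakdown (0.41 ± 0.07). Without 24 h or without 32 h none of these 5 was called. SLC25A13 was 0.09 with the mean over its probe sets (adjusted p = 0.715), and SLC25A13 and SLC25A15 were not called with every probe set, with arrays centred or without pairing (adjusted p from 0.0528 to 0.125). HIBCH was not called without pairing (adjusted p = 0.0661). The QDPR difference was -0.62 with the mean over its probe sets (adjusted p = 0.00876). Over all 7 times limma called 0 of the 60, against 0.913% of all genes, with 23 (38.3%) at an unadjusted p under 0.05, against 26.0% of all genes.

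In the late window 13 of the 60 were higher and 15 lower, with a median of -0.04 against -0.01 for all genes, of which 16.4% were called higher and 12.6% lower. In the urea cycle list 1 of 5 was called, NAGS, which makes the activator of CPS1, at -0.59 ± 0.10 (limma adjusted p = 0.00483). In histidine breakdown 1 of 2 was called, AMDHD1, which acts 2 steps after HAL, at -0.75 ± 0.16 (limma adjusted p = 0.0105). It was not called without 72 h (-0.38, adjusted p = 0.0580). In phenylalanine and tyrosine breakdown QDPR was the 1 call of 4, at -1.11 ± 0.16 (-0.47 with the mean over its probe sets, adjusted p = 0.00737).

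Of 8 further enzymes of tryptophan and lysine breakdown, 1 was higher and 3 lower late. KYAT3, another kynurenine aminotransferase, was at -0.56 ± 0.09, GCDH of lysine breakdown at -0.66 ± 0.15 and kynureninase (KYNU) at -0.42 ± 0.10. GCDH was not called without 72 h (-0.35), nor KYNU without 120 h (-0.31) or without pairing (adjusted p = 0.142). Around glutamate and proline 3 of 8 were higher and 1 lower. The proline oxidase PRODH was at 1.10 ± 0.18, GOT1 at 0.75 ± 0.11 and glutamate dehydrogenase (GLUD1), which releases ammonia from glutamate, at -1.09 ± 0.21. PRODH was 0.69 without 72 h and 1.501 without 120 h, each from 1 late pair. The GLUD1 difference was -1.60 without 120 h and -0.58 without 72 h.

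In glycine, serine and threonine metabolism 2 of 9 were higher and 3 lower late, with GCSH of the glycine cleavage system at -1.49 ± 0.40, SHMT2 at -0.95 ± 0.09 and AGXT at -0.52 ± 0.16. GCSH was at -0.55 without 72 h and then not called (adjusted p = 0.209), and AGXT was not called without 4, 8, 24 or 120 h (adjusted p from 0.0503 to 0.208). Among 18 branched-chain amino acid enzymes 7 were higher and 3 lower, with BCAT1 at -1.01 ± 0.15, MCCC2 at -0.91 ± 0.19 and PCCA at 0.86 ± 0.23. MCCC2 was -0.45 without 72 h and -1.38 without 120 h, each from 1 late pair. PCCA was 0.30 without 72 h and not called (adjusted p = 0.204), nor was it called without 24 h (0.0520). In methionine and cysteine metabolism 2 of 6 were lower, CTH at -1.80 ± 0.13 and CBS at -0.72 ± 0.14, the 2 enzymes that make cysteine from homocysteine. Of the 17 late genes named here, 4 (QDPR, SHMT2, BCAT1 and CTH) were still called when the late window was fitted on its own 2 pairs.

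**Figure D4:**
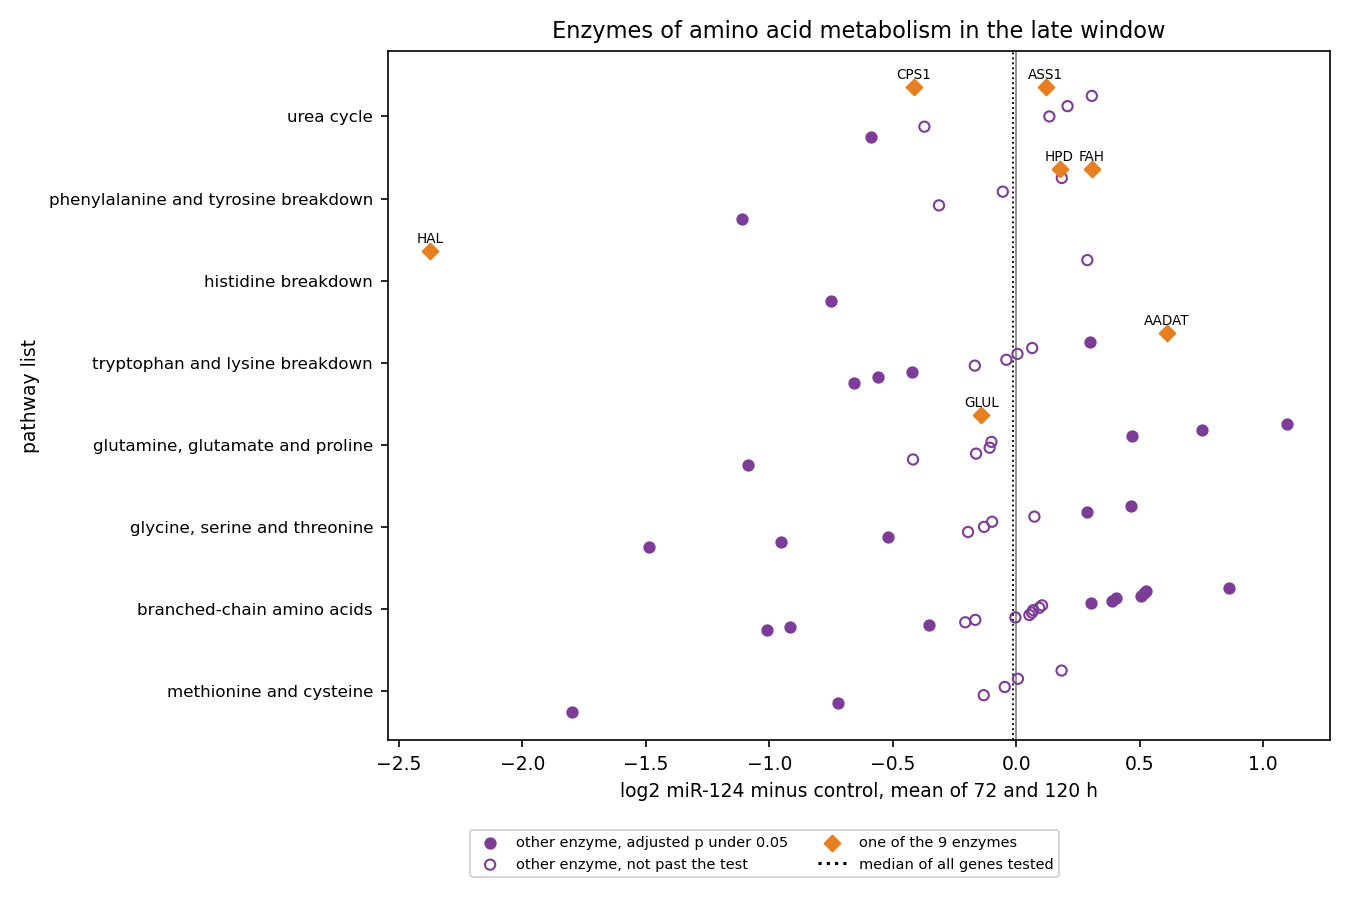
Late difference (log2 miR-124 minus control, mean of 72 and 120 h, horizontal axis) of each tested enzyme in 8 pathway lists (rows). Filled circles passed the test at an adjusted p under 0.05, open circles did not, diamonds are the 7 tested genes of the 9 described here (HAL and AADAT without a test), and the dotted line is the median of all genes tested, -0.01. HAL lies farthest left, and each of the 8 lists holds values on both sides of 0.

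With time in the miR-124 arm alone, 14 of the 60 further enzymes rose and 3 fell, with a median slope of 0.0514 against -0.00272 for all genes, of which 13.7% rose and 8.06% fell. ASL, which splits argininosuccinate after ASS1, rose at 0.23 ± 0.03 per doubling of time (limma adjusted p = 0.00480). The formiminotransferase FTCD of histidine breakdown rose at 0.12 ± 0.03 (limma adjusted p = 0.0345). AFMID of tryptophan breakdown fell at -0.22 ± 0.04 (limma adjusted p = 0.0144). These 3 were named after their values were seen. In the control arm 6 of the 60 rose and 1 fell, which was AFMID too, against 8.18% of all genes called there.

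Among 8 regulators of liver genes, the glucocorticoid receptor NR3C1 was lower with miR-124 in the middle window (-0.66 ± 0.12, limma adjusted p = 0.0180) and ATF4, which responds to amino acid shortage, was lower late (-0.61 ± 0.09, limma adjusted p = 0.00231). The NR3C1 call was lost without 24 h (adjusted p = 0.175) and without 32 h (0.176). CEBPA, a driver of hepatocyte genes, differed by -1.01 ± 0.35 in the middle window, by -0.80 ± 0.42 in the late one, and was not called in either (limma adjusted p = 0.135 and 0.203). It differed within the late window: -1.88 without 120 h and 0.28 without 72 h, each from 1 late pair. Its middle difference was called without 72 or 120 h (limma adjusted p = 0.00214 each) and in a fit of the 3 middle pairs alone (0.000215). HNF4A is not analysed here. No relation between these regulators and the 9 genes was tested.

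The genes whose signal ran most like that of HAL over the 14 arrays were LRG1 (Pearson r = 0.937), ETHE1 (0.936) and LOC107984282 (0.916). Without the control arrays of 72 and 120 h these values were 0.0397, 0.180 and 0.461, so the likeness rested on those 2 arrays. For AADAT they were CCDC150 (0.910), SPIN4 (0.897) and WDR73 (0.885), with 0.691, 0.666 and 0.389 without the control array of 120 h and the miR-124 array of 72 h. For CPS1 they were WSB1 (0.974), ZNF507 (0.965) and CNOT6L (0.957), with 0.970, 0.928 and 0.951 without the miR-124 arrays of 32 and 72 h. At 4, 72 and 120 h the WSB1 signal was 10.33, 10.14 and 10.21 in the control and 10.32, 9.17 and 9.62 with miR-124. These correlations are descriptions over arrays that share times, and the top genes were picked from 13137.

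The label of the cells was checked against markers. The hepatocyte genes ALB, AFP, APOA1, APOB, TF and SERPINA1 read 12.79 or more in every array, and TTR read 10.21 to 12.19. None of the 7 was called in the late window by limma, against 29.1% of all genes. At an unadjusted p under 0.05 there were 2, against 39.8% of all genes. With 7 genes these counts do not show that the markers kept their level. Markers of other cell types were not all dim. Of 4 blood markers PTPRC and CD14 were below the limit for testing. CD3D and HBB were above it, with means above those of 72.8% and 79.8% of probe sets. CD3D was higher late (1.44 ± 0.25, limma adjusted p = 0.00466, and 0.83 without 72 h). Among 7 fibroblast and endothelial markers COL3A1 and CDH5 were below the limit, and COL1A1, PDGFRA, PDGFRB, PECAM1 and VWF were above it. The mean of COL1A1 was above that of 83.8% of probe sets and that of PECAM1 above 83.2%. PECAM1 was higher late (0.46 ± 0.11, limma adjusted p = 0.0189, and 0.28 without 72 h). Of 5 neuron markers SYT1, STMN2 and GAP43 were below the limit. RBFOX3 and SNAP25 were above it, with means above those of 67.6% and 55.9% of probe sets, and were not called. The miR-124 array of 4 h stood apart with a mean 18S ribosomal RNA signal of 11.1 against 8.70 in its partner. The slope of HPD in miR-124 cells was as large without that array (0.19).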

How the data were processed

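Total RNA (about 10 µg per array, per the labels' protocols) was made into biotinylated cRNA and read on one-colour arrays. The authors deposited log2 values, 1 per probe set and array. The submitters' processing notes name RMA, whose version and settings are not given in the sources used here. RMA gives all arrays like distributions, and so a change in total messenger RNA per cell cannot be seen. Arrays have no depth, and their number limits the precision.

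Of 54675 probe sets, 62 were controls and 41091 of the rest had 1 gene symbol, 1801 several and 11721 none listed. The tests used limma 3.58.1 in R 4.3.3 (lmFit, eBayes), were two-sided and took an adjusted p under 0.05 (Benjamini-Hochberg, over all genes tested). The code was run on simulated data with independent noise of the same size for every gene and no likeness within pairs. That run checks the code only, not how well the tests suit these arrays. Overall and window effects had time as a block, with 6 and 4 residual degrees of freedom, and slopes had 5. Standard errors come from these fits. The windows share 1 spread per gene, so the SE of a window does not measure how far its own pairs lie apart. The arms were paired by time from the labels, and deviations of paired arrays correlated at 0.206 to 0.480 in the 7 pairs. No label names separate cultures. The p-values therefore measure only how these arrays and times vary, which may be technical. Single times were not tested.

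The 9 genes, the windows and the lists were chosen with earlier results of these data known, and the late CPS1 difference was among those results. Named were all 9 genes, up to 3 called genes with the largest change per list and comparison, 3 regulators (CEBPA, HNF4A and ATF4) and the 3 most alike genes for HAL, AADAT and CPS1. Alternatives were every probe set, median centring, the mean over a gene's probe sets, no pairing, rank of time, each window alone and leaving out each time. Python 3.11.15 and matplotlib 3.10.9 drew the figures. No 2 arrays held identical values (correlations 0.904 to 0.997).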

Additional observations from a re-analysis of the deposited data

Results flagged for a closer look

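Each arm's 7 arrays were checked for an array whose gap to its neighbour was a large share of the arm's range, leaving aside the control courses of HAL and AADAT, which chose these genes. Of those 16 checks 3 passed Dixon's critical value at the 95% level, where chance gives about 1 in 20. FAH in the control arm had its array of 120 h low, with a gap of 0.602 of the range. TAT in the miR-124 arm had its array of 120 h low (0.698), and ARG1 in the miR-124 arm had its array of 4 h high (0.612), both on probe sets below the limit for testing. The arrays of an arm differ in time, so a gap may be a change with time. As a description only, with no test, AADAT in the control arm had its array of 120 h low with a gap of 0.791 of the range.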

How the results depend on the processing

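Among the 5 testable genes, each read on its brightest probe set, the 1 call of the middle window (CPS1) became 0 when every probe set was tested (the other CPS1 probe set was called there), with arrays centred on their medians and with no replicate block (no pairing by time), and was 0 to 1 as each time was left out. The 1 late call (CPS1) became 3 with the mean over a gene's probe sets (CPS1, FAH and GLUL). The late count was 0 with no replicate block, 0 on the window's own pairs and 0 to 1 as each time before 72 h was left out. Without 72 h the late call passed from CPS1 to FAH, whose difference was then 0.57 from 1 late pair. As each time was left out, the count over all times was 0 to 1 and that of the ratio slope 0 to 1. The count of the miR-124 slope, tested in 7 genes with HAL and AADAT included, was 1 to 2. With 120 h left out the miR-124 slopes called were those of HPD and CPS1. The counts of the early window and of the change between windows were 0 in each setting tried. Of the values of single named genes under an alternative, 837 kept their side of the threshold and their direction or moved by less than 1 standard error, 25 turned sign without being called in either fit, 75 lost a call, 11 gained one and 27 values without a test moved; no called value turned its direction. HAL has no value with the mean over probe sets, which fell below the limit for testing. Of all genes, 120 were called over all times, against 323 with every probe set, 1 with arrays centred, 0 with the mean over probe sets, 328 with no replicate block and 0 to 974 as each time was left out. For the middle window 1028 became 1749 with every probe set, 2164 on its own pairs and 0 to 2198 with a time left out, and for the late window 3821 became 8119, 469 and 2861 to 4892. The change between windows had 624 calls, 1256 with every probe set and 78 to 2369 with a time left out. The slopes had 2855 (5304; 1044 to 3205) with miR-124, 1127 (1999; 223 to 2338) for the ratio and 1075 (1772; 229 to 1112) in the control, with every probe set and with a time left out in parentheses. The cause of these shifts was not tested.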
